A study of Mus musculus with 2 samples.

Results

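Teneurins, latrophilins and the fibronectin leucine-rich transmembrane (FLRT) proteins are cell surface molecules that bind one another between neighbouring cells. The 10 genes described here are Tenm1 to Tenm4, Adgrl1 to Adgrl3 (also written Lphn1 to Lphn3) and Flrt1 to Flrt3. They were taken by symbol from gene tables that list 43346 genes, and all 10 were found. RNA came from C57BL/6J mice at embryonic day 18, whose central nervous system was sequenced in 2 libraries of 1 group with no named treatment, so the design holds no contrast between conditions. Each library came from its own tissue sample, littermates of both sexes were mixed, and the labels do not give the number of embryos. The libraries were stranded and paired-end and held polyadenylated RNA over 200 nt, depleted of ribosomal RNA.

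Teneurins are large transmembrane proteins with an extracellular region that includes a beta-propeller and a barrel. That region binds the lectin-like domain of latrophilins, a family of adhesion G-protein-coupled receptors. FLRT proteins bind the olfactomedin-like domain of the same latrophilins and also the Unc5 guidance receptors. In the developing nervous system these contacts are known for neuron migration, axon matching and the choice of synaptic partners, and short alternatively spliced exons in teneurins and latrophilins are known to alter them.

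Library depth was 97513548 estimated fragments in replicate 1 and 142741622 in replicate 2, of which 93979836 and 137012773 were assigned to genes. The tissue label held against its markers. Tubb3, a tubulin of young neurons, stood at 2731 and 2430 TPM (a level corrected for length and library size) and Fabp7, a radial glia marker, at 1433 and 1603 TPM. The 2 libraries stood apart in genes of skeletal muscle, choroid plexus, meninges, bone and cartilage, and sensory ganglia. In replicate 1 and replicate 2, respectively, the summed level of 6 skeletal muscle genes was 13.2 and 489 TPM, that of 5 choroid plexus genes 437 and 1411 TPM, and that of 5 meningeal genes 554 and 928 TPM. Bone and cartilage genes summed to 9.40 and 52.1 TPM and sensory ganglion genes to 8.81 and 53.8 TPM. The highest of each were Acta1 (10.2 and 167 TPM), Ttr (427 and 1389 TPM), Ptgds (434 and 621 TPM), Ibsp (0.47 and 27.9 TPM) and Prph (5.56 and 42.5 TPM). By contrast, the lists for young neurons, mature neurons, radial glia, the oligodendrocyte lineage, endothelial cells and microglia had summed levels in replicate 2 that were 0.893 to 1.10 times those in replicate 1. No gene of the 5 lists that stood apart was at 0 in either library. Ttr and Ptgds made up most of the choroid plexus and meningeal sums. After scaling, 4 of the 5 choroid plexus genes and 4 of the 5 meningeal genes were higher in replicate 2, and 1 of each list was lower. The part of the tissues of those 5 lists in the levels below was not tested, and every level is therefore given for each library. Spread between the 2 libraries may be partly technical.

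The sequences that the splicing results turn on are short exons, shown here with 15 bases of the neighbouring exons on each side. They are taken 5′ to 3′ from GENCODE M21 transcripts on GRCm38, with the alternative exon in capitals. A 21-nt exon of each teneurin is placed in the beta-propeller, and that of Tenm2 is known to alter binding to latrophilins. These 4 exons are shown because they could be set side by side across the family.
Tenm1 21-nt exon, chrX:42648394-42648414, minus strand: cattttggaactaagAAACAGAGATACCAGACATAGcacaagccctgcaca
Tenm2 21-nt exon, chr11:36054926-36054946, minus strand: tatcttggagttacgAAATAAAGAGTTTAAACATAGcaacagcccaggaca
Tenm3 21-nt exon, chr8:48287133-48287153, minus strand: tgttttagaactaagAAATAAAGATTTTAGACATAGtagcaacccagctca
Tenm4 21-nt exon, chr7:96854717-96854737, plus strand: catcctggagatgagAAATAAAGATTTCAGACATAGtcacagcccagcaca
The 21-nt exons of Tenm3 and Tenm4 shared 20 of 21 bases, those of Tenm2 and Tenm3 19, and those of Tenm2 and Tenm4 18. The Tenm1 exon shared 14, 16 and 17 bases with those of Tenm2, Tenm3 and Tenm4.

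A further small exon of the teneurins lies among the EGF-like repeats, a region through which teneurins form dimers. It is shown for 3 genes because its use differed between Tenm3 and Tenm4.
Tenm1 24-nt exon, chrX:42727337-42727360, minus strand: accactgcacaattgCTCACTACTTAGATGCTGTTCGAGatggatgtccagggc
Tenm3 27-nt exon, chr8:48313238-48313264, minus strand: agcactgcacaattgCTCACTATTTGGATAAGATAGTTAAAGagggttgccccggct
Tenm4 27-nt exon, chr7:96805105-96805131, plus strand: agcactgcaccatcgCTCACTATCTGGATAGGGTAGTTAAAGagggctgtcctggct
The 27-nt exons of Tenm3 and Tenm4 shared 24 of 27 bases.

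The 15-nt exon of the latrophilins lies between the lectin-like and olfactomedin-like domains and is known to affect teneurin binding. It is shown with a 12-nt exon of Adgrl2 that lies between similar exons, because its use was low in Adgrl1.
Adgrl1 15-nt exon, chr8:83926262-83926276, plus strand: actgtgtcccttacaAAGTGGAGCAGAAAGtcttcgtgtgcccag
Adgrl3 15-nt exon, chr5:81509724-81509738, plus strand: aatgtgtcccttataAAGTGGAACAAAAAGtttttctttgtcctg
Adgrl2 12-nt exon, chr3:148860427-148860438, minus strand: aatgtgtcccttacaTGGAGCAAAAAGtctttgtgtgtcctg
The 15-nt exons of Adgrl1 and Adgrl3 shared 13 of 15 bases.

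The 18-nt exons near the 3′ end of the latrophilin genes, in the part that encodes the cytoplasmic tail, are shown because their use differed widely between Adgrl1 and Adgrl2.
Adgrl1 18-nt exon, chr8:83937916-83937933, plus strand: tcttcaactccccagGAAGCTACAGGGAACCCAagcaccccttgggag
Adgrl2 18-nt exon, chr3:148820451-148820468, minus strand: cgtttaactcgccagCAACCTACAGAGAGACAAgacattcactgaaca
Adgrl3 18-nt exon, chr5:81792361-81792378, plus strand: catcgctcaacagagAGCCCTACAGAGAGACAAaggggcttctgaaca
The 18-nt exons of Adgrl2 and Adgrl3 shared 15 of 18 bases, those of Adgrl1 and Adgrl2 12, and those of Adgrl1 and Adgrl3 10. Adgrl2 and Adgrl3 also held a matching pair of 27-nt exons and a matching pair of 39-nt exons. The use of the 39-nt exon differed between both genes, and the order at the 27-nt exon depended on which junctions were counted.
Adgrl2 27-nt exon, chr3:148827212-148827238, minus strand: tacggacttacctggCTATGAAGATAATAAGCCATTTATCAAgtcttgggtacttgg
Adgrl3 27-nt exon, chr5:81757986-81758012, plus strand: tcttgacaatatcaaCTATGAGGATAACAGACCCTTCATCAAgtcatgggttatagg
Adgrl2 39-nt exon, chr3:148849766-148849804, minus strand: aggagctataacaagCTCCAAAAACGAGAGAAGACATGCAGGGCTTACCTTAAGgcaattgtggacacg
Adgrl3 39-nt exon, chr5:81663386-81663424, plus strand: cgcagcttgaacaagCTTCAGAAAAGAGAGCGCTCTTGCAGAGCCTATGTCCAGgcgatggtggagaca
The 27-nt pair shared 21 of 27 bases and the 39-nt pair 25 of 39.

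The latrophilins were the most abundant of the 10 genes. Adgrl1 was measured at 199.9 TPM in replicate 1 and 143 TPM in replicate 2 (171 ± 40.4, SD, n = 2). Adgrl2 stood at 127 and 115 TPM (121 ± 8.44, SD, n = 2), and Adgrl3 at 56.8 and 52.4 TPM (54.6 ± 3.08, SD, n = 2). Adgrl1 had the widest gap between libraries of the 10 genes, and its lower library still lay above both values of Adgrl2. In whole tissue, fewer cells of a type and less RNA per cell cannot be told apart.

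The teneurins followed, within a narrow range. Tenm2 was measured at 29.0 and 25.8 TPM (27.4 ± 2.27, SD, n = 2) and Tenm3 at 23.6 TPM in both libraries (23.6 ± 0.0071, SD, n = 2). Tenm1, the X-linked member, stood at 18.7 and 18.0 TPM (18.3 ± 0.516, SD, n = 2) and Tenm4 at 14.7 and 14.9 TPM (14.8 ± 0.134, SD, n = 2). From the highest to the lowest teneurin the levels spanned less than the step from Adgrl2 to Adgrl3.

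Of the FLRT genes, Flrt2 stood at 14.3 and 14.4 TPM (14.3 ± 0.0636, SD, n = 2), next to Tenm4. Flrt3 was measured at 10.7 and 9.62 TPM (10.2 ± 0.785, SD, n = 2). Flrt1 was the lowest of the 10 genes, at 2.54 and 2.16 TPM (2.35 ± 0.269, SD, n = 2), and its mean was 4.33 times below that of Flrt3.

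**Figure D1:**
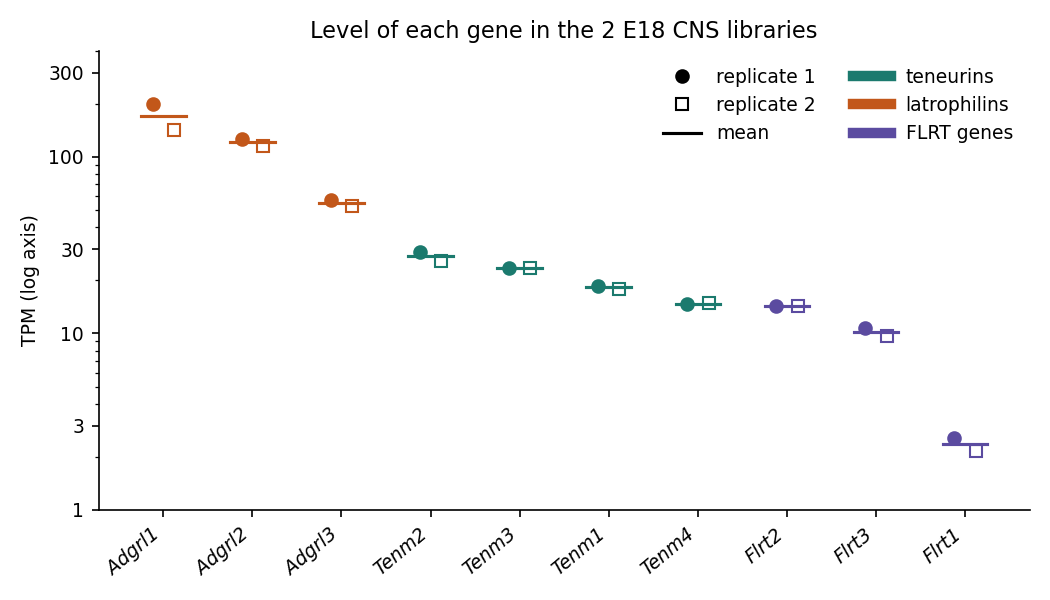
Level of each of the 10 genes in TPM on a log axis, with filled circles for replicate 1, open squares for replicate 2 and a line for the mean. The 3 latrophilins lie above 50 TPM in both libraries, and Flrt1 lies below 3 TPM.

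All 10 genes reached the detection level of 1 TPM in both libraries, as did 34.2% of the 43346 genes. At 5 TPM, 9 genes remained and Flrt1 fell out, beside 26.4% of the 43346 genes that reached that level. The median of the 10 genes was 21.0 TPM, beside 17.7 TPM over all detected genes. Adgrl1 stood at percentile 94.6 of the detected genes, Adgrl2 at 91.8 and Adgrl3 at 78.9, whereas Flrt1 stood at 9.57. No 2 neighbours in the order overlapped between libraries, but the step from Tenm4 to Flrt2 was only 0.470 TPM.

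Summed by family, the latrophilins held 346.8 ± 51.9 TPM, the teneurins 84.1 ± 2.66 TPM and the FLRT genes 26.8 ± 0.990 TPM (SD, n = 2). The latrophilins took 77.2% and 74.1% of the summed TPM of the 10 genes. Within the latrophilins, Adgrl1 took 49.1% ± 4.30, Adgrl2 35.1% ± 2.81 and Adgrl3 15.9% ± 1.48 (SD, n = 2). Teneurin shares lay between 17.6% for Tenm4 and 32.6% for Tenm2, so no teneurin held most of its family. Flrt2 took 53.4% ± 2.21 of the FLRT sum (SD, n = 2).

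A second quantification of the same tissue, on mm9 and in RPKM (reads corrected for length and library size), gave another order for the middle of the list. Its replicate values, which the labels do not tie to replicate 1 or 2 above, were 24.2 and 21.1 RPKM for Adgrl1, 15.1 and 14.1 for Adgrl2, and 5.73 and 4.32 for Adgrl3. Latrophilins led there too. Tenm1 was the highest teneurin in that table, at 4.14 and 3.63 RPKM, above Tenm2 at 3.23 and 3.20 RPKM and Tenm3 at 2.77 and 2.91 RPKM. Flrt2, at 2.41 and 2.32 RPKM, had a mean just above that of Tenm4, whose values of 2.56 and 2.16 RPKM lay on either side of it. Flrt3 stood at 1.51 and 1.42 RPKM, and Flrt1 was again the lowest, at 0.360 and 0.315 RPKM. In all, 5 of the 10 genes kept their place in the order.

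The genes differ widely in genomic span. Tenm2 spans 1229 kb (chr11:36006656-37235964, minus strand, GRCm38), with an intron of 479 kb. Tenm1 spans 901 kb (chrX:42527866-43429126, minus strand), Adgrl3 805 kb (chr5:81020138-81825133, plus strand), Tenm4 740 kb (chr7:96171246-96911093, plus strand) and Tenm3 616 kb (chr8:48227682-48843951, minus strand). Adgrl2 spans 175 kb (chr3:148815583-148990555, minus strand) and Flrt2 92.99 kb (chr12:95692226-95785215, plus strand). The most abundant member, Adgrl1, is also one of the shortest, at 41.9 kb (chr8:83900105-83941954, plus strand). Flrt3 (chr2:140650914-140671469, minus strand, 20.6 kb) and Flrt1 (chr19:7092001-7105729, minus strand, 13.7 kb) lie opposite Macrod2 and Macrod1 on the other strand. All the other genes except Flrt2 also overlap annotated genes on the other strand, such as Sh2d1a in Tenm1. Whether the counting used strand is not given in the sources used here, so reads of such overlapping pairs may not be told apart.

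Transcript tables divided each gene's TPM among its annotated transcripts, and part of several genes' TPM came from short entries to which few fragments were assigned. In Tenm1, a processed transcript of 1143 nt took 50.9% and 48.6% of the gene's TPM but 7.31% and 6.77% of its fragments. The protein-coding Tenm1 transcript of 12879 nt took 35.2% and 35.0% of the TPM, with 68.0% and 65.3% of the fragments.

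Adgrl1 showed the same division. Its 8181-nt protein-coding transcript stood at 122 and 105 TPM, and transcripts under 3000 nt took 33.3% and 21.1% of the gene's TPM with 3.20% and 1.81% of its fragments. These were mainly 3 entries: a processed transcript of 756 nt and retained introns of 909 and 440 nt, which stood at 24.0, 23.0 and 19.3 TPM in replicate 1 and at 9.20, 12.6 and 8.01 TPM in replicate 2. Most of the gap of Adgrl1 between the libraries therefore lay in these short entries.

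The other teneurins had 1 leading transcript each, annotated as protein-coding in Tenm2 and Tenm4. In Tenm2 it was 9908 nt long and took 73.2% and 80.8% of the TPM, beside a 368-nt processed transcript at 17.7% and 11.8%. Tenm3 was led by a 7827-nt transcript at 66.1% and 64.7%, an entry that GENCODE M21 does not list under the same identifier. Tenm4 was led by a 13172-nt transcript at 58.5% and 56.5%.

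Adgrl2 had only 3 annotated transcripts and was led by a 6052-nt protein-coding one at 83.4% and 81.8% of its TPM. In GENCODE M21 that transcript holds the 27-nt and 39-nt exons shown above. Over all junctions at their edges (described below), these exons had an inclusion of 32.2% and 67.3%. The share is therefore an estimate over few models and not the share of that exact form. Adgrl3 was spread over 32 annotated transcripts, and its highest, a processed transcript of 3279 nt, took only 18.3% and 17.4%. Flrt1 has a single annotated transcript. The highest transcript took 77.4% and 73.0% of the TPM of Flrt2 and 90.3% and 90.6% of that of Flrt3, and neither gene had TPM in transcripts under 3000 nt.

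**Figure D2:**
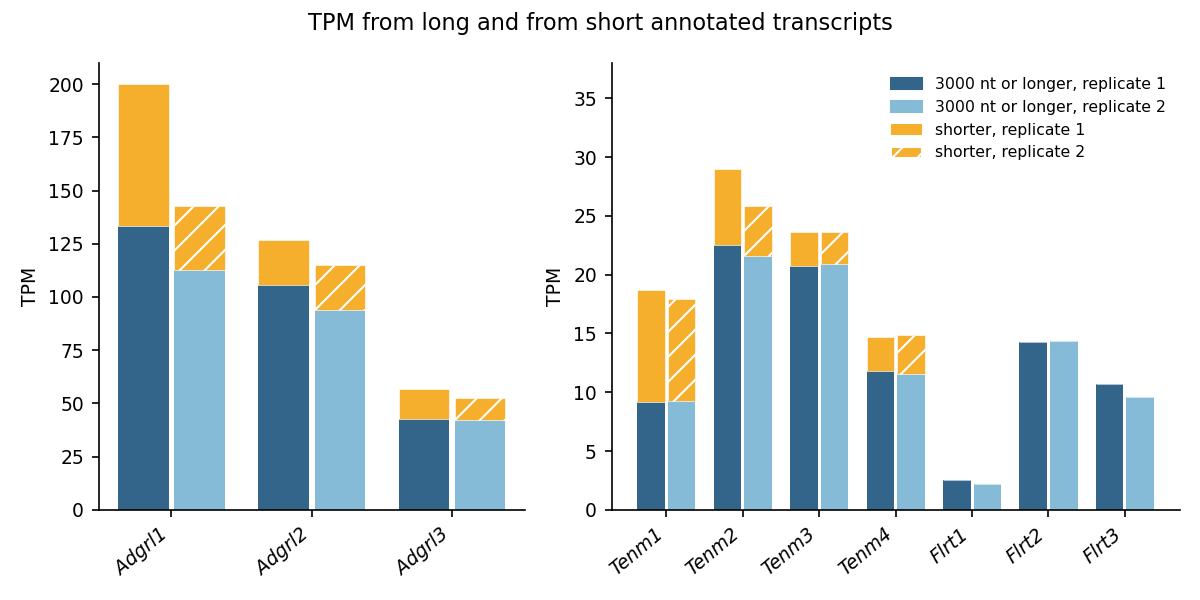
TPM of each gene (y axis) split into annotated transcripts of 3000 nt or longer (blue) and shorter ones (orange), with 1 bar for each library and a separate scale for each panel. Short transcripts hold 33.3% of the TPM of Adgrl1 in replicate 1 and 50.9% of that of Tenm1, and none of that of the FLRT genes.

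Counting only transcripts of 3000 nt or longer, a choice made after seeing the data, left Tenm1 at 9.17 and 9.22 TPM and Tenm4 at 11.8 and 11.5 TPM. Flrt2, unchanged at 14.3 and 14.4 TPM, then stood above both. Adgrl1 stood at 133 and 113 TPM, above Adgrl2 at 106 and 94.0 TPM. The latrophilins kept 74.5% of the summed TPM of the 10 genes on that measure.

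Splicing was read from a deposited list of junctions on mm9 with read counts of 2 replicates, R1 and R2, which are not tied by the labels to replicate 1 and 2. Within the 10 genes it held 1864 junctions with 166944 reads, of which 6.11% were at junctions absent from the annotation of that file. Adgrl1 had 63759 junction reads and Adgrl2 59590, Adgrl3 14756, Tenm2 11442, Tenm3 8556, Tenm4 4583 and Tenm1 3605. The FLRT genes, whose coding sequence lies in 1 exon, had 62 to 436 reads and no alternative exon that could be measured. Inclusion is the mean of the reads at both inclusion junctions over that mean plus the skipping reads. Intervals are 95% Clopper-Pearson intervals and cover counting error only.

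Annotated alternative exons of 27 nt or shorter were measured at 12 places in 6 of the 10 genes, and the length of all 12 is a multiple of 3, so that each keeps the reading frame. Inclusion was over 50% for 8 of them, and for 6 when every junction at the exon edges was counted. The Adgrl3 18-nt exon is among the 8 only with reads of an acceptor that it shares with a 52-nt form. Intervals of R1 and R2 overlapped for all 12.

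The 21-nt exon of the beta-propeller was included in most transcripts of every teneurin. In Tenm2 its upstream and downstream junctions had 214 and 217 reads against 34 that skipped it, an inclusion of 86.4% (interval 81.5% to 90.4%, R1 87.6%, R2 85.5%). In Tenm3 it had 127 and 152 reads against 34, an inclusion of 80.4% (interval 73.8% to 86.1%, R1 82.1%, R2 79.2%). In Tenm4 it had 90 and 97 reads against 13, an inclusion of 87.8% (interval 80.1% to 93.4%, R1 95.8%, R2 81.4%). The 3 intervals overlapped. In Tenm1 the exon had 52 and 51 reads and only 2 reads spanned it. Over all junctions at its edges inclusion was 96.3%, with a lower interval end of 87.3%. By that count the exon stood at 85.1% in Tenm2, 78.4% in Tenm3 and 87.0% in Tenm4.

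The exon among the EGF-like repeats was used less evenly. In Tenm3 the 27-nt exon had 188 and 134 inclusion reads against 46, an inclusion of 77.8% (interval 71.5% to 83.2%, R1 79.8%, R2 76.9%). In Tenm4 it had 72 and 74 reads against 55, an inclusion of 57.0% (interval 48.0% to 65.7%, R1 56.0%, R2 57.7%). The intervals of both genes did not overlap, although the exons share 24 of 27 bases. In Tenm1 the 24-nt exon had 138 and 144 reads and 1 read spanned it. Over all junctions at its edges inclusion was 99.3%, with a lower interval end of 96.1%. By that count the 27-nt exon stood at 75.4% in Tenm3 and 55.3% in Tenm4.

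Tenm3 also used a small exon that the mm9 annotation does not hold, with a choice of acceptors 3 nt apart. The 18-nt form (chr8:49397029-49397046, mm9) had 57 upstream reads and the 21-nt form (chr8:49397029-49397049) 19, both shared a downstream junction with 61 reads, and 134 reads skipped them. Inclusion came to 30.6% and 23.0% for the forms, each counted with the shared junction, so the 2 values overlap and cannot be added. The upstream junction of the 21-nt form alone gave 12.4%. Over all junctions at the exon edges, 201 reads spanned the forms. Inclusion was then 22.7% for the 18-nt form and 16.6% for the 21-nt form. No sequence is given for this exon.

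The 15-nt exon between the binding domains of the latrophilins was mostly skipped. In Adgrl1 it had 65 upstream and 103 downstream reads against 1346, an inclusion of 5.87% (interval 4.71% to 7.22%, R1 4.80%, R2 6.93%). An acceptor 3 nt further upstream, not annotated on mm9, had 57 reads and shared the same downstream junction. Adgrl3 had 31 and 8 reads against 48, an inclusion of 28.9% (interval 19.0% to 41.7%), but the inclusion junctions were unequal. Over all junctions at its edges, 311 reads spanned the Adgrl3 exon and inclusion was 5.90%.

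In Adgrl2, the 12-nt exon between similar exons had 443 reads at its downstream junction but 7 at its upstream junction, against 190 that skipped it, so its inclusion could not be stated. The share in Adgrl3 thus depended on which junctions were counted, and the value in Adgrl1 moved only to 6.60% over all junctions at its edges.

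The 18-nt exon of the cytoplasmic tail was included in nearly all Adgrl1 reads and in few of Adgrl2. Adgrl1 had 2213 and 2520 inclusion reads against 12, an inclusion of 99.5% (interval 99.1% to 99.7%, R1 99.5%, R2 99.5%). Adgrl2 had 592 and 224 reads against 3272, an inclusion of 11.1% (interval 10.1% to 12.1%, R1 10.1%, R2 11.9%). The Adgrl2 junctions were unequal, and the lower alone gave 6.41% and the higher alone 15.3%. Adgrl3 had 275 and 120 reads against 178, a value of 52.6% (interval 47.5% to 57.8%, R1 53.7%, R2 51.8%), or 40.3% from the lower and 60.7% from the higher junction alone.

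The Adgrl3 value covers more than 1 form, because its 18-nt exon shares its acceptor with a 52-nt form that changes the reading frame. Of 585 reads that left either form, 465 left the 52-nt form (79.5%, interval 76.0% to 82.7%) and 120 the 18-nt form (20.5%). In Adgrl1 and Adgrl2 all 2587 and 369 such reads left the 18-nt form. From outgoing junctions alone, with the 52-nt form and skipping both counted against it, the 18-nt form made up 15.7% in Adgrl3 (interval 13.2% to 18.5%, R1 17.5%, R2 14.4%). The same measure gave 99.5% in Adgrl1 and 6.41% in Adgrl2 (interval 5.62% to 7.27%). For the 18-nt form it counted only reads to the chosen downstream flank, 2520 in Adgrl1 and 224 in Adgrl2. In Adgrl2 the measure therefore equals the value of the lower junction alone. It was chosen after the data were seen.

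For the 27-nt exons of Adgrl2 and Adgrl3, the order of the genes depended on which junctions were counted. The Adgrl2 exon had 852 and 788 reads against 405, an inclusion of 66.9% (interval 64.2% to 69.6%, R1 62.8%, R2 69.5%), in transcripts that held the 45-nt exon before it. Reads that passed over both exons were more common, and over all junctions at its edges inclusion was 32.2%. Adgrl3 had 132 and 112 reads against 329, an inclusion of 27.1% (interval 23.0% to 31.4%, R1 32.2%, R2 22.7%), or 26.2% over all junctions. With the flanks that had most reads in all, chosen after the data were seen, the order turned, at 23.6% in Adgrl2 and 27.1% in Adgrl3. The 39-nt exon was skipped more often in Adgrl2, with 2421 and 2006 reads against 970 and an inclusion of 69.5% (interval 67.9% to 71.1%), than in Adgrl3, with 326 and 413 reads against 18 and an inclusion of 95.4% (interval 92.8% to 97.2%).

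**Figure D3:**
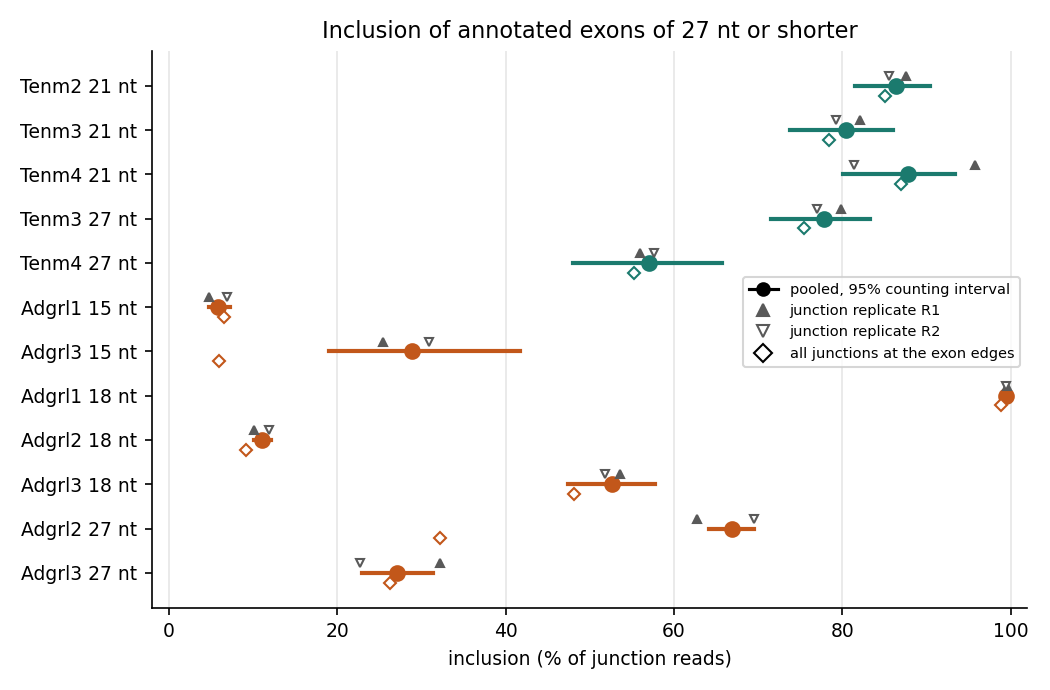
Inclusion in % (x axis) of the 12 annotated exons of 27 nt or shorter, with pooled values and 95% intervals, R1 and R2 as triangles and the value over all junctions at the exon edges as open diamonds. The 21-nt exons of Tenm2, Tenm3 and Tenm4 lie between 80.4% and 87.8%, and the 18-nt exons of Adgrl2 and Adgrl1 at 11.1% and 99.5%. The small exons of Tenm1 are not drawn. The Adgrl3 18-nt value of 52.6% includes reads at the acceptor shared with the 52-nt form.

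The difference at the latrophilin tail began upstream of the 18-nt exon. These alternative 3′ exons give tails that differ in their ends, some of which are known to be bound by Shank scaffold proteins. From a 97-nt exon that all 3 genes share in length, 2822 reads left in Adgrl1 and 99.9% of them joined the acceptor of a 129-nt exon, which an annotated 180-nt form shares in that gene. In Adgrl2, 83.6% of 3967 reads joined the 129-nt exon and 15.1% went directly to the long last exon. In Adgrl3, 19.1% of 685 reads joined the 129-nt exon, 40.1% the acceptor of the 18-nt and 52-nt forms, 26.0% the long last exon and 11.4% an alternative last exon of 218 nt.

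After the 129-nt exon, 99.5% of 2225 Adgrl1 reads joined the 18-nt exon. Of 4839 Adgrl2 reads, 67.6% joined the long last exon, 12.2% the 18-nt exon and 17.7% an acceptor not annotated on mm9. In Adgrl3, 85.0% of 127 reads joined the acceptor of the 18-nt and 52-nt forms. The Adgrl1 value covers reads that left the 129-nt donor only, whereas 2871 reads reached its acceptor.

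**Figure D4:**
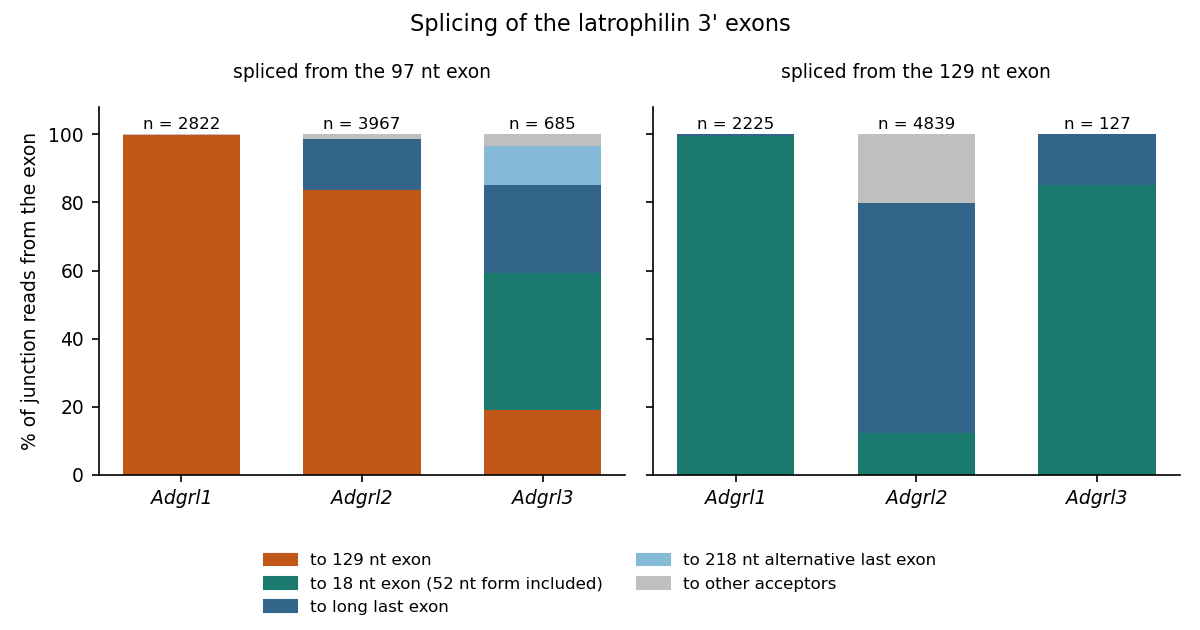
Share of junction reads (y axis, %) that left the 97-nt exon (left) or the 129-nt exon (right) of each latrophilin, by the exon they joined, with the number of reads above each bar. Adgrl1 joins the acceptor of the 129-nt exon in 99.9% of reads and Adgrl3 in 19.1%.

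Of the longer annotated exons, 17 had inclusion between 5% and 95%, and 14 of these keep the reading frame. With the most reads in each gene, the 129-nt exon of Adgrl2 (chr3:148484244-148484372, mm9) was included in 84.6% (interval 83.4% to 85.7%) and the 204-nt exon of Adgrl3 (chr5:81758782-81758985) in 88.6% (interval 86.3% to 90.7%). In the teneurins, the 90-nt exon of Tenm2 (chr11:36771373-36771462) was included in 8.84% (interval 5.62% to 13.6%). Tenm3 included its 279-nt exon (chr8:49731612-49731890) in 66.4% (interval 57.2% to 74.8%), and Tenm4 its 210-nt exon (chr7:103792509-103792718) in 34.4% (interval 26.4% to 43.6%). Tenm1 and Adgrl1 had no longer annotated exon in that range.

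Between the libraries, none of the 10 genes differed by 2-fold or more, beside 3.58% of 18677 genes tested. None was past 2-fold higher in replicate 2, beside 2.64% of genes, and none past 2-fold lower, beside 0.937%. The comparison used estimated fragments scaled with edgeR, has 1 library on each side and carries no p-value. Adgrl1 had the largest difference, with 63875 and 80839 fragments, a log2 ratio of -0.25 (replicate 2 minus replicate 1, counting interval -0.27 to -0.24). Flrt1, at 856 and 1103 fragments, had a log2 ratio of -0.23 (interval -0.36 to -0.10). The ratio of Adgrl2 was -0.15 (interval -0.17 to -0.14) and that of Flrt3 -0.15 (interval -0.23 to -0.07).

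The remaining 6 genes had log2 ratios between -0.06 for Tenm2 and 0.01 for Tenm3. In all, 9 of the 10 genes were lower in replicate 2, beside 49.5% of all genes tested. Among these 9, some counting intervals included no difference. They were those of Tenm1 (-0.05 to 0.04), Tenm4 (-0.07 to 0.01), Adgrl3 (-0.04 to 0.03) and Flrt2 (-0.08 to 0.02). The median log2 ratio of the 10 genes was -0.05 and that of all genes 0.00. From the deposited TPM, the log2 ratio of Adgrl1 was -0.49.

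**Figure D5:**
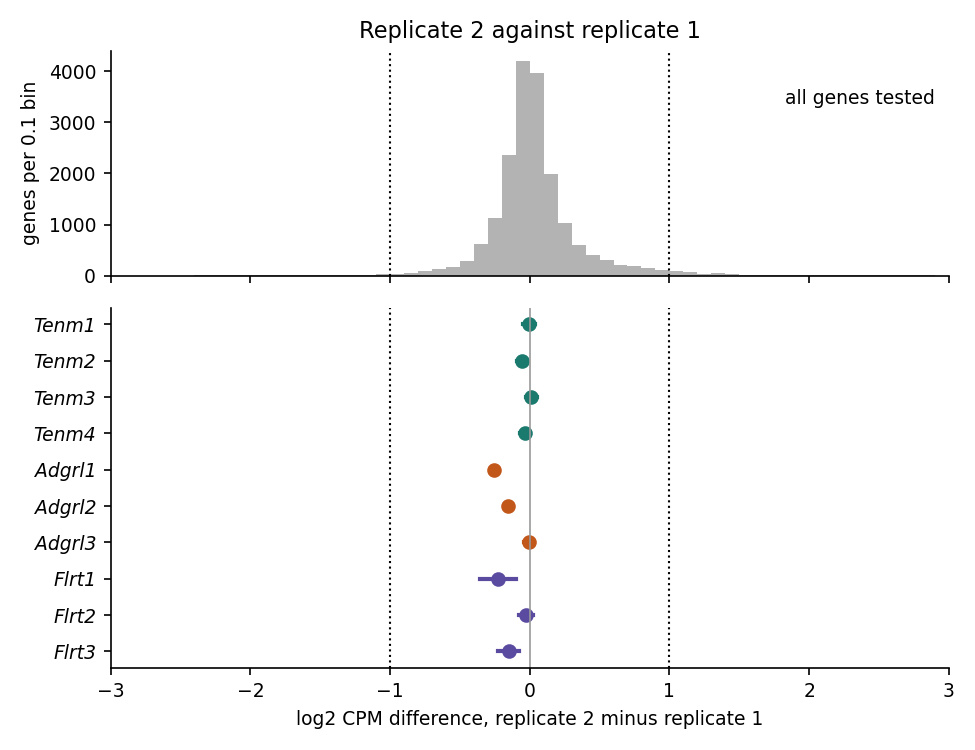
Log2 difference in CPM (library-scaled counts), replicate 2 minus replicate 1 (x axis), for all genes tested (top, number of genes per bin of 0.1, genes beyond 3 in either direction not drawn) and for the 10 genes with 95% counting intervals (bottom). Dotted lines mark 2-fold, and all 10 genes lie between -0.25 and 0.01.

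Genes that act with these receptors were taken from a list of 20 and all 20 were detected at 1 TPM in both libraries, beside the 34.2% above. None of them differed by 2-fold between the libraries, beside 3.58% of all genes tested. Of the 20, 15 were lower in replicate 2, beside 49.5% of all genes, and their median log2 ratio was -0.13. Nrxn2, a neurexin that binds latrophilins, was the highest, at 194 and 165 TPM, close to Adgrl1. Gna12, a G protein alpha subunit, stood at 57.3 and 54.4 TPM, and Robo1, a guidance receptor that associates with Flrt3, at 40.2 and 34.7 TPM.

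The 2 lowest of the 20 were Unc5b and Unc5c, members of the Unc5 guidance receptors, which bind FLRT proteins. Not all Unc5 genes were low, as Unc5a stood at 29.2 and 26.3 TPM. Unc5b stood at 4.13 and 3.55 TPM and Unc5c at 6.70 and 8.26 TPM. Shank1, a postsynaptic scaffold, had the largest ratio of the list, at 26.97 and 15.25 TPM and a log2 ratio of -0.76, and was named after its values were seen.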

How the data were processed

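Levels came from the gene and transcript tables of each library, which the authors deposited in 3 units, namely expected counts (estimated fragments), TPM and FPKM, on mm10 with annotation M4 per the deposited read-me. Transcript shares are the percent of a gene's TPM that the authors deposited with each transcript. The mm9 gene file gives RPKM on Ensembl release 65 models per the file headers, and the deposited junction list gives read counts of 2 replicates, R1 and R2. The sources used here name no aligner or quantifier. Entries that are not genes (3.62% and 4.01% of fragments) were left out. Expected counts were rounded and scaled with edgeR 4.0.16 (TMM, filterByExpr, prior count 1) in R 4.3.3, and DESeq2 1.42.0 size factors were an alternative. Other steps used Python 3.11.15, pandas 2.3.3, numpy 2.4.6, scipy 1.17.1 and matplotlib 3.10.9. The log2 ratio between libraries and the inclusion value with its interval were tested on simulated data. The simulated exons had equal reads at both inclusion junctions, so unequal junctions were not covered.

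Junction strands and spans had to lie within a gene on mm9. An exon needed 20 junction reads, and 5 at each inclusion junction, a limit added after seeing the data. Its flanks were those whose smaller inclusion junction had most reads, also chosen after seeing the data. Sequences were matched to GENCODE M21 by exon length and the lengths of both neighbouring introns.

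Named were all 10 genes, of the 20 acting with them the 4 highest, the 2 lowest and any past 2-fold, the highest of each marker list that is discussed, every alternative exon of 27 nt or shorter, 1 longer one and the highest transcript of each gene. One result that this rule would name is not reported here. The genes and lists were chosen with earlier results of these data known. One group allows no test between conditions.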

Additional observations from a re-analysis of the deposited data

How the results depend on the processing

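The order of the 10 genes was the same in FPKM, in TPM over genes other than mitochondrial ones and in either library alone, whereas in mm9 RPKM 5 of 10 genes and over transcripts of 3000 nt or longer 7 kept their place. In counts with no length correction the latrophilins took 69.7% of the 10 genes instead of 75.6%, and with 1 library left out 74.1% to 77.2%. No gene passed 2-fold under DESeq2 size factors, no filter, prior counts of 0.25 and 5, or unscaled TPM. At 10 or 50 junction reads 12 small exons were kept and 8 were over 50%, and with either junction replicate left out it was also 8. It was 7 with the lower inclusion junction alone and 8 with the higher. Chosen after seeing the data, all junctions at the exon edges gave 6, the flanks with most reads in all gave 7 (Adgrl2 27 nt at 23.6%, below Adgrl3 at 27.1%), outgoing junctions of the 18-nt exons gave 7 (Adgrl3 at 15.7%) and balanced junctions gave 8. With 1 library left out, the highest transcript took over 50% in 8 to 9 genes. The cause of these shifts was not tested. Junction depth limits the small exons: the Adgrl3 15-nt exon, with 31 and 8 inclusion reads, was the shallowest. No paired analysis was possible because the series holds 1 group.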
